A study of Mus musculus with 6 samples.

Results

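The insulin-like growth factor (IGF) axis and the growth hormone receptor were followed in soleus, a postural hindlimb muscle, of wild-type C57Bl/6 mice after 1 day of reloading. The members were the probes that the platform annotation names Igf1, Igf2, Igf1r, Igfbp2, Igfbp4 or Ghr, which gave 7 probes of 6 genes among 223 probes of 203 named genes. Igf1 had 2 probes, and all 7 were above 0 on all 6 arrays. The data were 6 arrays of 1 group, each from 3 micrograms of total RNA extracted from muscle cryosections. The labels number the samples 1 to 6 and do not say that they came from 6 animals. Spreads therefore measure differences between these samples, and p-values test whether a pair of quantities varied together over them. Either kind of variation may be technical. Unloaded or control muscle was not analysed here. The measurements therefore give the level of each gene, its spread and which genes varied together, and no effect of reloading.

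IGF-1 and IGF-2 are small secreted growth factors that act on the same receptor tyrosine kinase, the product of Igf1r, which signals through PI3-kinase and Akt to protein synthesis and through MAP kinases to cell division. Growth hormone binds its own receptor, the product of Ghr, which activates STAT5 and raises Igf1 transcription in liver and other tissues. Muscle makes IGF-1 itself, and its local supply is known for a part in growth and repair after loading, while IGF-2 is known as an autocrine factor of differentiating myoblasts. IGF-binding proteins hold both ligands in the extracellular space, and IGFBP-4 is mainly known as an inhibitor of IGF action.

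Pairs called as varying together after median centring, as given further on, held Igf1, Igf2, Igfbp2 and Ghr. Igfbp4 had r below 0 with each of these on that scale. Of these genes, Igfbp2 is not shown. The 4 sequences shown are those upstream of Igf1, Igf2, Ghr and Igfbp4. Each is the 250 bases before the most upstream start that RefSeq lists in its window table (build GRCm38.p6), written 5′ to 3′ on the gene's own strand. Which start the measured transcripts used is not known. Capitals mark matches, on either strand, to the TATA box (TATAAA), the GC box (GGGCGG), the AP-1 element (TGANTCA) or the STAT element (TTCNNNGAA).
Igf1, chr10:87860861-87861110, plus strand: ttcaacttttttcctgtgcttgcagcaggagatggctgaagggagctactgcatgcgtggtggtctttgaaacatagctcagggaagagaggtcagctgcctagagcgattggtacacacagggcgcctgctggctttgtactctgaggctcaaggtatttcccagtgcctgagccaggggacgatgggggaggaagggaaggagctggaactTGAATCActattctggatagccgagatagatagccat
Igf2, chr7:142666817-142667066, minus strand: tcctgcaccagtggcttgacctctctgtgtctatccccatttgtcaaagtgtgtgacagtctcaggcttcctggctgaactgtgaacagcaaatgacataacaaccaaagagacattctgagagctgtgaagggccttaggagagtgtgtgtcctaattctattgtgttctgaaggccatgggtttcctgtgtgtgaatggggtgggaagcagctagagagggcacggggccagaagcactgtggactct
Ghr, chr15:3583353-3583602, minus strand: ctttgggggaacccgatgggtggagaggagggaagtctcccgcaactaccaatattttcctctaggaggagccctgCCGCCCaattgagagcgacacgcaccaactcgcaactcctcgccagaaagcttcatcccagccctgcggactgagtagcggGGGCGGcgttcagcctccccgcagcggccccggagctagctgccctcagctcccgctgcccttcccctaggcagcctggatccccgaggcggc
Igfbp4, chr11:99040994-99041243, plus strand: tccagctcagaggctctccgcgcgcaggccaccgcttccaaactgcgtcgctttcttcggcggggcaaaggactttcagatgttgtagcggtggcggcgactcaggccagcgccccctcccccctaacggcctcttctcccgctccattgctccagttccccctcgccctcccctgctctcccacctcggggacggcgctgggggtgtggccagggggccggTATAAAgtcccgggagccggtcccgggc

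The Igf1 window held 1 match to the AP-1 element, the Ghr window 2 to the GC box and the Igfbp4 window 1 TATA box. The Igf2 window shown held no match to these letters. The window table lists 4 starts for Igf2, 2 each for Ghr and Igfbp2 and 1 for each of the others, which makes 11 windows. Among the Igf2 windows not shown, that at chr7:142658805-142659054 held 1 GC box and that at chr7:142657497-142657746 held 2. The Ghr window not shown held 1 TATA box and 1 AP-1 element. Of the 11, 5 held a GC box, 3 an AP-1 element, 2 a TATA box and 0 a STAT element. Among all 32851 windows of the table the shares were 32.7% for the GC box, 6.75% for the AP-1 element, 12.4% for the TATA box and 7.02% for the STAT element. These are matches of letters in 1 short window and say nothing of binding.

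The arrays differed widely in overall signal, which bears on every value below. Summed over all probes, the deposited intensity ranged from 13.8 on replicate 6 to 165.3 on replicate 1, with replicates 2 to 5 at 35.2 to 41.3. Deposited intensities are linear, in the authors' units, and go below 0. How far below 0 an array went was taken as its noise bound, which was 0.0144 on replicate 1 and 0.0011 to 0.0028 elsewhere. For comparison between arrays, the log2 intensity of the median probe, over the 175 probes above 0 on all 6 arrays, was subtracted from each array, so that 0 is the median kept probe. The tissue label was checked against muscle fibre genes: all 7 measured of 10 listed (Myh7, Myh2, Myh1, Myh4, Des, Mb and Ttn) were above the bound on every array, and their sum was 10.4% to 18.2% of the summed intensity. The only measured gene of the leukocyte list, Il1b, was at or below 0 on all arrays, which does not show that leukocytes were absent. The levels of different probes are not compared, because each probe has its own hybridisation response.

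Both Igf1 probes were measured above the noise bound on every array, and both were highest on replicate 5. The brighter probe, 22H, had deposited intensities of 0.1046, 0.0298, 0.0385, 0.0390, 0.1223 and 0.0297 on replicates 1 to 6. Replicates 1 and 5 stood above the other 4 on this scale, and replicate 1 was also the array of highest overall signal. After median centring the probe was at 1.45 ± 0.75 (SD, n = 6) log2 units, lowest on replicate 1 at 0.69 and highest on replicate 5 at 2.86, a 4.48-fold range. Without replicate 5 the range was 1.86-fold.

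The second Igf1 probe, 16I, had deposited intensities of 0.0308, 0.0258, 0.0200, 0.0380, 0.1057 and 0.0254 on replicates 1 to 6. Only replicate 5 stood apart here, and replicate 1 lay among the others despite its overall signal. After centring this probe was at 0.89 ± 1.23 (SD, n = 6), from -1.07 on replicate 1 to 2.64 on replicate 5, a 13.1-fold range. The range was 5.39-fold without replicate 5 and 4.82-fold without replicate 1. Both probes were highest on replicate 5 under every scaling used: median-centred, deposited, quantile-normalized and relative to the 28S ribosomal RNA probe.

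The 2 Igf1 probes varied together, with Pearson's r of 0.88 over the 6 arrays (exact two-sided permutation p = 0.0194, BH p = 0.186) and Spearman's rho of 0.83 (exact p = 0.0583, BH p = 0.319). Here and below an exact p is this two-sided permutation p of a single pair, and the BH p is its Benjamini-Hochberg adjustment over all 15225 pairs of kept probes. By r, 0 of these pairs passed 0.05, against 2808 at an unadjusted p under 0.05 by r and 1938 by rho. With both replicates 1 and 5 left out, which lay farthest from the median of probe 22H, r was 0.44, so the relation rested on those samples. Leaving out single arrays gave r from 0.83 to 0.91 and ended the call without replicate 1, 2, 5 or 6 (exact p = 0.117, 0.05, 0.117 and 0.0667). The probes differed most on replicate 1, where the intensity of 22H was 3.40 times that of 16I. On replicates 2, 4, 5 and 6 this ratio was between 1.03 and 1.17, and on replicate 3 it was 1.93. The size of the ratio is not read as abundance, only its change from array to array. Which Igf1 transcripts each probe detects is not given in the sources used here.

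Igf2, which encodes the second ligand, was above the noise bound on every array. Its deposited intensities were 0.0953, 0.0875, 0.0448, 0.0800, 0.2238 and 0.0971 on replicates 1 to 6. Replicate 5 was the highest and replicate 3 the lowest, and the other 4 arrays lay close together although replicate 1 had 11.9 times the summed intensity of replicate 6. On the centred scale Igf2 was at 2.33 ± 1.16 (SD, n = 6), from 0.56 on replicate 1 to 3.73 on replicate 5, an 8.99-fold range that was 4.55-fold without replicate 1. In deposited units the range was 5.00-fold, 2.17-fold without replicate 5 and 2.80-fold without replicate 3. Replicate 5 was also highest relative to 28S, but replicate 6 was highest after quantile normalization.

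**Figure D1:**
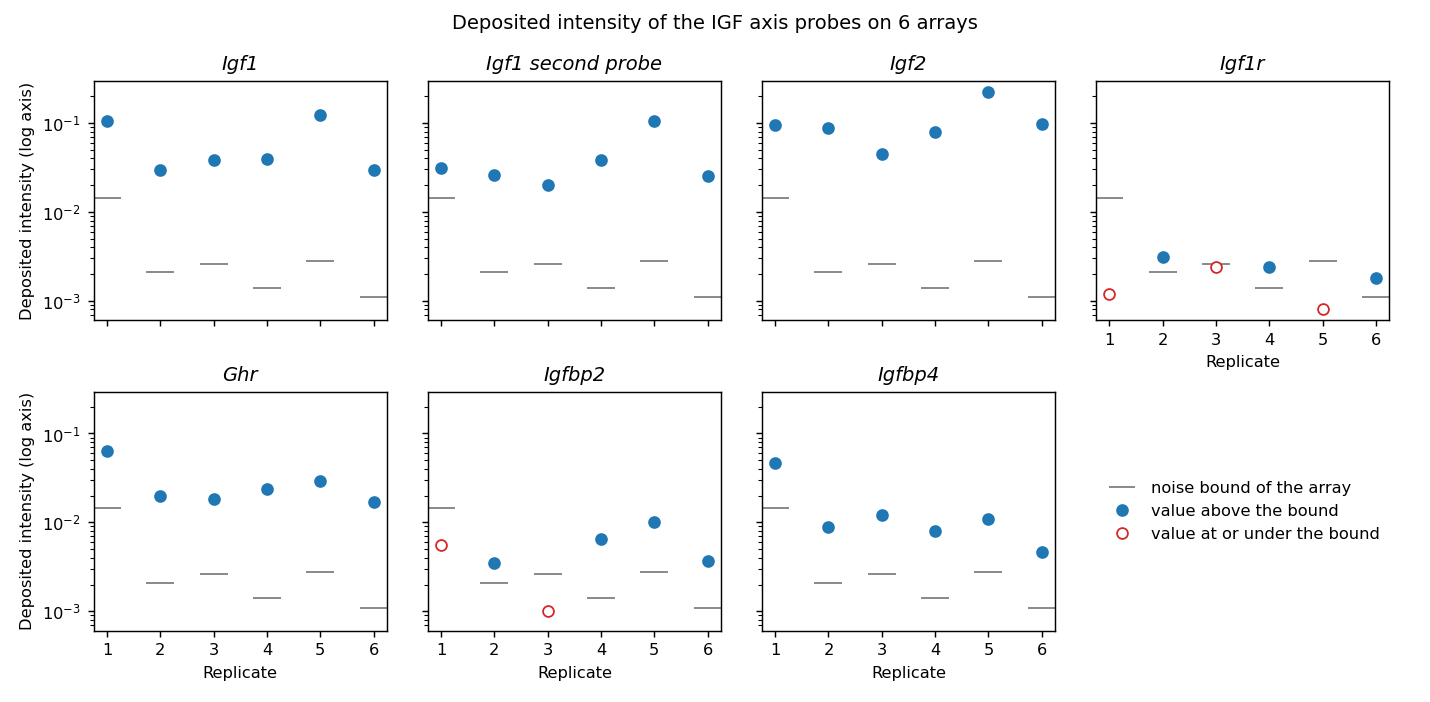
Deposited intensity of the 7 probes on replicates 1 to 6 (vertical log axis, the authors' units, 1 point per array), with the noise bound of each array as a grey bar. Filled points are above the bound and open points at or under it: 3 arrays of Igf1r and 2 of Igfbp2 are open, and both Igf1 probes and Igf2 are highest on replicate 5.

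The receptor gene Igf1r was the dimmest against background. Its deposited intensities were 0.0012, 0.0031, 0.0024, 0.0024, 0.0008 and 0.0018 on replicates 1 to 6, and those of replicates 1, 3 and 5 were at or under the noise bound. On the centred scale its SD was 1.39, larger than that of 92.0% of the other kept probes, and its range was 11.1-fold, or 4.37-fold without replicate 1. With the arrays under the bound set to it, the range was 1.51-fold. The arrays of lowest Igf1r, 1 and 5, were under the bound, so its spread and its order over arrays are not measured well enough to describe further. Values under the bound do not show that the transcript was absent.

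Ghr, the growth hormone receptor gene, was among the more even genes after centring. Its deposited intensities were 0.0636, 0.0197, 0.0181, 0.0239, 0.0294 and 0.0168 on replicates 1 to 6. Replicate 1 was highest on that scale, as it was for 146 of the 175 kept probes, and the other 5 arrays lay within 1.75-fold of each other. After centring Ghr was at 0.45 ± 0.32 (SD, n = 6), lowest on replicate 1 at -0.025 and highest on replicate 5 at 0.80, a 1.77-fold range. Its SD was larger than that of only 8.62% of the other kept probes. In deposited units the range was 3.79-fold, and relative to 28S it was 2.30-fold with replicate 4 highest.

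The binding protein gene Igfbp2 was near the noise bound and varied widely. It had deposited intensities of 0.0055, 0.0035, 0.0010, 0.0065, 0.0102 and 0.0037 on replicates 1 to 6, with replicates 1 and 3 under the bound. Replicate 5 was highest, as for both ligand genes. The centred mean was -2.18 ± 1.30 (SD, n = 6) and the range 9.29-fold, which was 6.14-fold without replicate 5 and 3.57-fold with the arrays under the bound set to it.

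Igfbp4, an even gene after median centring, varied widely in deposited units. Its deposited intensities of 0.0468, 0.0089, 0.0122, 0.0079, 0.0108 and 0.0046 on replicates 1 to 6 were all above the bound. Like most genes it was highest on replicate 1 and lowest on replicate 6, a 10.2-fold range in deposited units that was 2.65-fold without replicate 1 and 5.92-fold without replicate 6. After centring it was at -0.73 ± 0.31 (SD, n = 6), a 1.70-fold range, and its SD was then the smallest of the 6 genes. It was not the smallest after quantile normalization, where Ghr had 0.30 and Igfbp4 0.31, and in deposited units it was 1.12, the second largest. Here replicate 3 was highest and replicate 6 lowest, whereas Ghr and Igf2 were low on replicate 3 and high on replicate 6. After quantile normalization Igfbp4 was highest on replicate 1 and lowest on replicate 4.

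**Figure D2:**
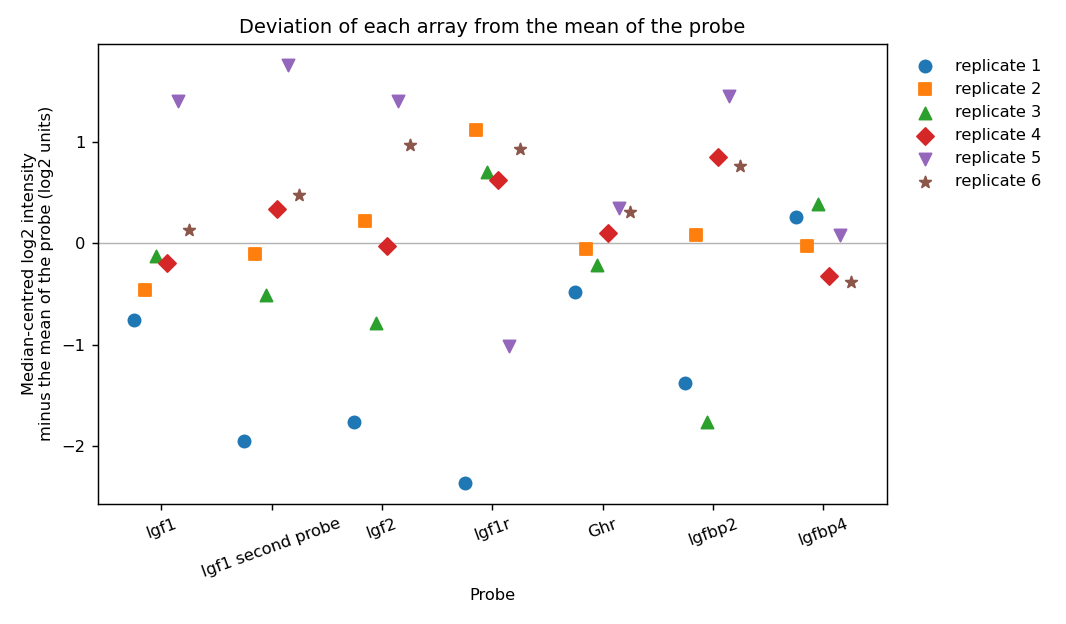
Median-centred log2 intensity of each probe on each array minus the mean of that probe (vertical axis, log2 units), with 1 symbol per replicate. Replicate 5 is the highest symbol for both Igf1 probes, Igf2, Ghr and Igfbp2, and replicate 1 the lowest for 5 of the 7 probes.

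After median centring the 6 genes ranged from among the most even probes to among the most variable. Their median SD was 0.95, against 0.64 over all 175 kept probes. This order depended on values near the noise bound: with values under the bound set to it the medians were 0.50 and 0.57, and with only the 130 probes above the bound on every array they were 0.54 for the 4 remaining genes and 0.57. In deposited units and relative to 28S the 6 genes were also under all kept probes, at 0.83 against 1.15 and 0.77 against 1.00. Counted from the smallest SD, Igfbp4 ranked 13 and Ghr 16 of the 175 probes, Igf1 (probe 22H) 104 and Igf2 141. Igfbp2 and Igf1r ranked 152 and 161, but rest on arrays under the bound, and with these set to it their SDs fell from 1.30 to 0.68 and from 1.39 to 0.22. The SD of Igf1 was 0.34 without replicate 5. In deposited units only Ghr and Igfbp4 of the members were highest on replicate 1, where 83.4% of the kept probes had their highest value. Both Igf1 probes, Igf2 and Igfbp2 were highest on replicate 5, where 10.9% of the kept probes were, and Igf1r was highest on replicate 2.

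After median centring the gene pairs called as varying together all lay among Igf1, Igf2, Igfbp2 and Ghr. Each gene was represented by its brighter probe, and all 15 pairs of genes were compared. At an unadjusted exact permutation p under 0.05, 5 of the 15 pairs were called, all with r above 0. These 4 genes are named because they hold the called pairs. That 5 of the 6 pairs among them were called follows from this choice and does not test them as a set. The background was high: 18.4% of all pairs of kept probes were called in either direction, and 10.2% with r above 0. The 15 pairs share genes and arrays, so their share of 33.3% was not tested against that background. None passed adjustment, and the smallest p that 6 arrays allow is 0.00278. The count of 5 was 3 after quantile normalization, where 14.3% of all pairs were called, 1 relative to 28S, against 33.0%, and 0 in deposited units, against 34.2%. It was 0 without replicate 1, where 8.75% of all pairs were called. Without replicates 2, 4, 5 and 6 it was 3, 1, 2 and 2, against 12.4%, 12.7%, 9.66% and 7.83%. Without replicate 3 it was 4, against 11.4%. Not all of these calls were among the 5. Igfbp2 and Igfbp4 (r = -0.99, exact p = 0.0333) were called without replicate 5, and Igf1 and Igfbp2 (r = 0.81, exact p = 0.0333) without replicate 3. The call of Igf2 and Ghr ended without replicate 1 or 3, that of Igfbp2 and Ghr without replicate 1, 2, 4 or 5, and those of Igf1 with Igf2 and with Ghr without replicate 1, 4, 5 or 6. Igf2 and Igfbp2 were not called without any 1 of the 6 arrays.

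Igf2 and Ghr had the highest r, 0.97 (exact p = 0.00833, BH p = 0.155), with rho = 0.94 (exact p = 0.0167, BH p = 0.205). Both were lowest on replicate 1, next lowest on replicate 3 and highest on replicates 5 and 6. With replicates 1 and 5 left out, r was 0.91. The relation depended on the scale, since r was 0.97 after quantile normalization but 0.32 in deposited units and 0.15 relative to 28S. Although parallel, the changes were unequal in size: Igf2 ranged 8.99-fold where Ghr ranged 1.77-fold.

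After median centring Igfbp2 varied with Ghr (r = 0.90, exact p = 0.0194, BH p = 0.186; rho = 0.89, exact p = 0.0333, BH p = 0.263) and kept r = 0.85 without replicates 1 and 3. This relation depended on the scale too, since r was 0.87 after quantile normalization but 0.48 in deposited units and 0.54 relative to 28S. Igfbp2 and Igf2 had r = 0.88 (exact p = 0.0361, BH p = 0.230) and rho = 0.77 (exact p = 0.103, BH p = 0.400), and r = 0.80 without replicates 1 and 5. Igfbp2 and Igf2 had similar r on every scale: 0.86 in deposited units (exact p = 0.0528), 0.78 after quantile normalization (exact p = 0.0889) and 0.89 relative to 28S (exact p = 0.0167). The pair was thus not called in deposited units or after quantile normalization. Of all pairs of kept probes, 32.9% in deposited units and 32.2% relative to 28S were called with r above 0. The 2 arrays on which Igfbp2 was under the noise bound were those of its lowest centred values. With these set to the bound, r of Igfbp2 and Igf2 was 0.78 (exact p = 0.0639).

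The ligand genes Igf1 and Igf2 had r = 0.79 (exact p = 0.0333, BH p = 0.220) and rho = 0.77 (exact p = 0.103, BH p = 0.400). Igf1 and Ghr had r = 0.77 (exact p = 0.0194, BH p = 0.186) and rho = 0.83 (exact p = 0.0583, BH p = 0.319). Both relations rested partly on replicates 1 and 5, since r without them was 0.37 for Igf2 and 0.60 for Ghr. On the centred scale the second Igf1 probe was closer to both. It had r = 0.95 with Igf2 (exact p = 0.00833, BH p = 0.155) and 0.94 with Ghr (exact p = 0.00278, BH p = 0.141). Its rho was 0.94 with Igf2 (exact p = 0.0167, BH p = 0.205) and 1.00 with Ghr (exact p = 0.00278, BH p = 0.149). Without replicates 1 and 5 these r were 0.83 and 0.96. For Ghr the order turned on other scales. In deposited units and relative to 28S its r with the second probe was 0.30 and 0.25, against 0.80 and 0.61 with the brighter probe. For Igf2 these were 0.90 and 0.91 with the second probe, against 0.64 and 0.50. The identifiers of the second Igf1 probe and of the Igf2 probe, 16I and 16J, are neighbours in the numbering, and whether the numbering gives positions on the array is not stated in the sources used here.

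Of the 9 pairs that held Igfbp4 or Igf1r, 0 passed the threshold by r and 0 by rho, against 18.4% and 12.7% of all pairs. These are the pairs outside the genes named for their calls, so the 0 by r follows from that choice. Without replicate 5, Igfbp4 and Igfbp2 were called (r = -0.99, exact p = 0.0333). Igfbp4 had r below 0 with each of the 5 other genes, from -0.75 with Igfbp2 (exact p = 0.0889) to -0.096 with Igf1 (exact p = 0.850). With Ghr it was -0.67 and with Igf2 -0.57, and after quantile normalization -0.90 and -0.84 (exact p = 0.0778 for each). In deposited units 3 of these 5 were above 0, and r of Igfbp4 and Ghr was 0.90 there (exact p = 0.0778). Igf1r had r between -0.47 and 0.42 with the others, and with replicate 1 left out its r with Igf2, Igfbp2 and Ghr went from above to below 0. A p that misses the threshold does not show that these genes were unrelated, least of all for Igf1r with 3 arrays under the bound.

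**Figure D3:**
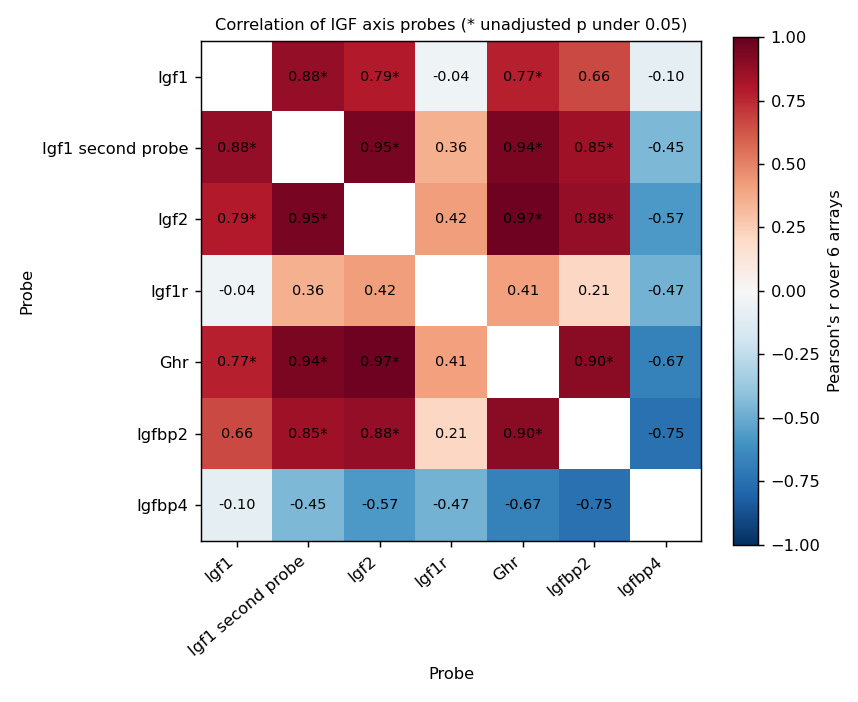
Pearson's r over the 6 arrays for each pair of the 7 probes on the median-centred log2 scale, with colour from -1 to 1. Asterisks mark an unadjusted exact permutation p under 0.05, which 5 of the 15 gene pairs reached by the brighter Igf1 probe, all among Igf1, Igf2, Igfbp2 and Ghr.

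Ratios within an array are not changed by dividing the whole array by a constant, although quantile normalization moves them. Over the 15 gene pairs the SD of the within-array log2 ratio had a median of 1.02, against 0.97 over all pairs of kept probes. It was 0.54 for Igf1 to Ghr and 0.57 for Igfbp4 to Ghr, smaller than in about 4 of 5 pairs of probes (18.0% and 20.2% of all pairs had smaller values). The SD of Igf1 to Ghr rested on replicate 5 and was 0.19 without it. Ratios that hold Igf1r or Igfbp2 depended on the arrays under the bound, and with these set to it the SD fell from 1.55 to 0.31 for Igf1r to Igfbp4 and from 1.02 to 0.45 for Igfbp2 to Ghr. The second Igf1 probe and Igf2 held the steadiest ratio, with an SD of 0.38 and a 1.82-fold range, and 6.21% of all pairs were steadier. The ratio of Igf2 to Igfbp4, a ligand and a binding protein, had an SD of 1.36 and ranged 10.4-fold. That ratio was lowest on replicate 1 at 2.04 and 3.67 on replicate 3, near 10 (9.83 and 10.1) on replicates 2 and 4, and highest on replicates 5 and 6 at 20.7 and 21.1. The ratio of Igf2 to Ghr ranged 5.08-fold, lowest on replicate 1 and highest on replicate 5 at 7.61.

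Few of the 6 genes were called with overall signal. By r, 37.1% of the kept probes were called with the summed intensity, and of the 6 genes only Ghr was. By rho 24.0% were called, and of the 6 genes only Igfbp4 was. With the log2 summed intensity of the arrays, Ghr had r = -0.84 (exact p = 0.0306; BH p = 0.101, here over all 175 kept probes) and rho = -0.83 (exact p = 0.0583, BH p = 0.176), and r = -0.85 without replicates 1 and 6. Igf2 had r = -0.81 (exact p = 0.0778, BH p = 0.175) and rho = -0.71 (exact p = 0.136, BH p = 0.277), with r = -0.73 without replicates 1 and 6. Igfbp4 had r = 0.67 (exact p = 0.142, BH p = 0.258) and rho = 0.89 (exact p = 0.0333, BH p = 0.139), with r = 0.84 without them. The other 3 genes had r = -0.44 (Igf1), -0.60 (Igfbp2) and -0.79 (Igf1r), none of them called. Without replicates 1 and 6 these were -0.38, -0.98 and 0.43. The value of Igf1 is that of its brighter probe. Its second probe had r = -0.72 (exact p = 0.0722, BH p = 0.169) and rho = -0.83 (exact p = 0.0583, BH p = 0.176), also not called. The part of overall signal in the joint variation was not tested.

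Of 32 further genes of IGF, insulin and growth hormone signalling that were listed, 6 were on the array: the IGF-2 clearance receptor Igf2r, the binding proteins Igfbp1, Igfbp3, Igfbp5 and Igfbp6, and the insulin receptor Insr. All 6 were above 0 on every array, and Igf2r, Igfbp5 and Igfbp6 were above the noise bound on all of them. Of their 36 pairs with the 6 genes, 5 (13.9%) were called, 3 of them with r below 0, against 18.4% of all pairs, and none passed adjustment. Without any 1 array the count was between 4 and 6, against 7.83% to 12.7% of all pairs.

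Igf2r, whose product takes IGF-2 into the cell for breakdown, ran opposite to Igf2 and Ghr after median centring. It had deposited intensities of 0.1370, 0.0246, 0.0305, 0.0228, 0.0162 and 0.0086 on replicates 1 to 6. In these units Igf2r was highest on replicate 1 and lowest on replicate 6, as Ghr was, so the opposite course was not seen there for Ghr. After centring it was at 0.50 ± 0.53 (SD, n = 6), highest on replicate 1 and lowest on replicate 6. With Igf2 it had r = -0.92 (exact p = 0.0139, BH p = 0.168) and rho = -0.89 (exact p = 0.0333, BH p = 0.263), and with Ghr r = -0.95 (exact p = 0.00556, BH p = 0.141) and rho = -0.94 (exact p = 0.0167, BH p = 0.205). With the 2 arrays farthest from the median of Igf2 or of Ghr left out, these r were -0.92 and -0.98. In deposited units 0 of the 36 pairs were called with r below 0 and 4 with r above 0, and relative to 28S 0 and 3. After quantile normalization 4 were called with r below 0 and 3 above. Of all pairs of kept probes, 1.27% were called with r below 0 and 32.9% above in deposited units. Relative to 28S these shares were 0.880% and 32.2%, and after quantile normalization 7.05% and 7.21%.

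Igfbp5, an IGF-binding protein made by differentiating muscle cells, varied with Igfbp4. Its deposited intensities were 0.0717, 0.0158, 0.0295, 0.0150, 0.0188 and 0.0060 on replicates 1 to 6, highest on replicate 1 and lowest on replicate 6 as for Igfbp4. The pair had r = 0.88 (exact p = 0.00556, BH p = 0.141) and rho = 0.94 (exact p = 0.0167, BH p = 0.205), with r = 0.94 without the 2 arrays farthest from the median of Igfbp4. The SD of their log2 ratio was 0.30. Igfbp6, which prefers IGF-2, was at 3.56 ± 0.49 (SD, n = 6) and had r = 0.84 with Ghr and 0.74 with Igf2, neither of which was called. Igfbp1, with 4 arrays at or under the bound, had r = 0.87 with Ghr (exact p = 0.0167, BH p = 0.175) and rho = 0.89 (exact p = 0.0333, BH p = 0.263).

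Of 9 listed muscle genes known to respond to IGF signalling, 8 were on the array and 7 above 0 on every array. Of their 42 pairs with the 6 genes, 6 (14.3%) were called, under the 18.4% of all pairs, and none passed adjustment. The pairs are given as a description. The kinase gene Cdk4, which drives entry into division, had r = 0.90 with Igf2 (exact p = 0.0139, BH p = 0.168; rho = 0.94, exact p = 0.0167, BH p = 0.205) and kept r = 0.97 without replicates 1 and 5. The glucose transporter gene Slc2a1 had r = 0.95 with Igfbp4 (exact p = 0.0222, BH p = 0.193; rho = 0.83, exact p = 0.0583, BH p = 0.319), and the SD of their log2 ratio was 0.12. Myog, the factor of terminal muscle differentiation, had r = -0.85 with Igf1 (exact p = 0.0278, BH p = 0.207; rho = -0.83, exact p = 0.0583, BH p = 0.319). The other called pairs were the cyclin gene Ccnd1 with Igfbp2 (r = -0.89), Cdk4 with Ghr (r = 0.88) and the cell cycle inhibitor Cdkn1a with Ghr (r = -0.84). The called pairs were 3 in each direction. In deposited units and relative to 28S, 0 of the 42 pairs were called with r below 0, and 6 and 5 with r above 0. Of all pairs 32.9% and 32.2% were called with r above 0 there. Leaving out 1 array brought the count of 6 down to between 0, without replicate 3, and 4, without replicate 5, with 1 without replicate 1. Of all pairs 11.4%, 9.66% and 8.75% were called without these arrays.

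Muscle fibre genes ran opposite to Igf2, Ghr and Igfbp2 after centring. All 7 had r below 0 with Igf1, Igf2, Igfbp2 and Ghr and above 0 with Igfbp4. Of the 42 pairs of a fibre gene and 1 of the 6 genes, 13 (31.0%) were called, against 18.4% of all pairs in either direction. All 13 had r below 0, against a background of 8.21% in that direction. Of the 13, Igf2 and Ghr had 5 each and Igfbp2 had 3. The 42 pairs share genes and arrays, so they are not separate observations, and their share was not tested against the background. Desmin (Des), an intermediate filament gene of muscle, had r = -0.97 with Ghr (exact p = 0.00556, BH p = 0.141; rho = -0.94, exact p = 0.0167, BH p = 0.205). The direction did not hold under all scalings. Quantile normalization called 0 of the 42 pairs, against 14.3% of all pairs. In deposited units 5 of the 42 and relative to 28S 7 were called with r above 0. Of all pairs of kept probes, 32.9% in deposited units and 32.2% relative to 28S were called with r above 0. Leaving out 1 array on the centred scale left 4 to 6 pairs called with r below 0, against 3.92% to 5.67% of all pairs. Without replicates 4 and 5, 1 and 2 were called with r above 0. The sum of the fibre genes was the largest share of the summed intensity on replicate 1, 18.2%, and the smallest on replicate 5, 10.4%. In such bulk samples, fewer cells of a type and less RNA per cell cannot be told apart.

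**Figure D4:**
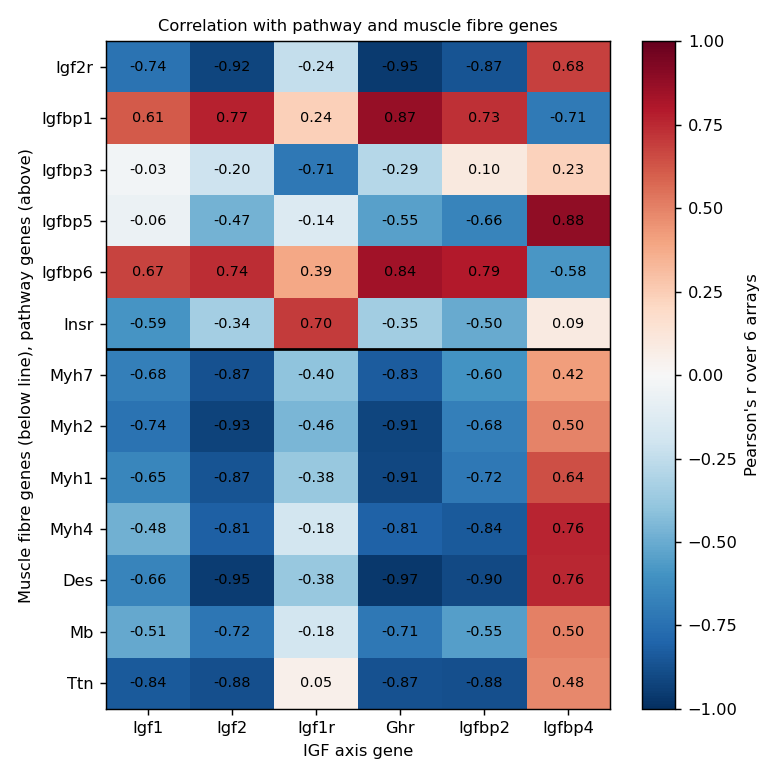
Pearson's r over the 6 arrays, on the median-centred log2 scale, between the 6 genes (columns) and the measured pathway genes (above the line) or muscle fibre genes (below the line). Igf1, Igf2, Ghr and Igfbp2 share the sign of r with all 7 fibre genes and with Igf2r, below 0, and Igfbp4 has the opposite sign there.

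Among markers of other cells in the tissue, the calls with the 6 genes came near the background share or under it. Of 6 listed endothelial genes, 5 were measured and all were above 0 on every array, and their sum was 0.288% to 0.767% of the summed intensity, highest on replicate 6 and 0.681% on replicate 5. Of 30 pairs with the 6 genes 6 (20%) were called, against 18.4% of all pairs, and all 6 had r above 0, against 10.2%. Of these, 4 held Pecam1, an adhesion gene of endothelium and leukocytes, and 2 Flt1, a VEGF receptor gene. Over the list 14 of the 30 pairs had r below 0, among them all 6 of the angiopoietin receptor gene Tek (-0.55 with Igf2, -0.36 with Ghr and -0.35 with Igf1). The count of 6 was 4 without replicate 3, 3 without replicate 4, 2 without replicate 2, 5 or 6 and 1 without replicate 1. Without 1 array 7.83% to 12.7% of all pairs were called. Pecam1 was the named gene most like Igf1, with r = 0.93 (exact p = 0.0417, BH p = 0.244) and rho = 0.83 (exact p = 0.0583, BH p = 0.319). That r was 0.43 without replicates 1 and 5. Of the matrix-producing cell list 3 of 5 genes were measured, at 0.223% to 0.409% of the summed intensity, and of the fat cell list 3 of 4, at 0.325% to 0.897%. Each had 1 called pair of 18 (5.56%), under the background. Of the satellite cell list only Myf5 was measured, above the bound on 1 array. The part of cell content in these patterns was not tested.

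The genes closest to each member were named as the 3 with the highest r over the 6 arrays, as a description with no test. They were Pecam1, Cdkn2d and Lama3 for Igf1 (0.93, 0.86 and 0.85), and Lama3, Igf2 and Ghr for the second Igf1 probe (0.96, 0.95 and 0.94). For Igf2 they were Flt4, Ghr and Ang (0.98, 0.97 and 0.96). Ghr had Flt4, Csf2rb2 and Lama3 (0.99, 0.98 and 0.97), so Flt4, a receptor of lymphatic endothelium that was above the bound on 4 arrays, led both lists. For Igfbp2 they were Pold1, Fosl2 and Lama3 (1.00, 0.96 and 0.93). Igfbp4 had Slc2a1, Igfbp5 and Pdha1 (0.95, 0.88 and 0.86), and Igf1r had Plau, Capn3 and Cyct (0.86, 0.80 and 0.79). The laminin chain gene Lama3, on 4 of these 7 lists, was above the bound on 5 arrays.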

How the data were processed

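The deposited table holds 1 intensity per probe and array for 223 probes on 6 arrays, per the labels from 1 group. The scanner, background method and normalization are not given in the sources used here. Probes were named from the platform annotation (205 named, 18 not), and the identifiers of all 6 member genes matched current RefSeq symbols. Probes above 0 on all 6 arrays (175) were put on a log2 scale with no pseudocount, and each array was centred on their median. For every pair of these probes Pearson's r and Spearman's rho were tested with an exact two-sided permutation over all 720 pairings of arrays, adjusted by Benjamini and Hochberg over all 15225 pairs. On simulated data of 175 unrelated, normally distributed probes 4.47% of pairs were called. The simulation had no effect shared within an array and no noise floor. In the real data, whose arrays differed in overall signal, 18.4% of pairs were called, so 4.47% is not taken as their rate of false calls. Of pairs simulated in the same way at a true r of 0.95, 91.0% were called. Named genes were the members, measured genes of the pathway, target and marker lists, and the 3 genes of highest r for each member. The members and lists were chosen with earlier results of these data known. The number of arrays limits the precision. Alternatives were other scalings, filters and probes and leaving out each array. Python 3.11.15, NumPy 2.4.6, pandas 2.3.3, SciPy 1.17.1 and Matplotlib 3.10.9 were used.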

Additional observations from a re-analysis of the deposited data

Results flagged for a closer look

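Among 41 sets of 6 values (the 7 member probes, the pathway and target genes and the log2 ratios of member probes), 1 held an array whose gap to the next was over 0.625 of the whole range. Chance would give about 2.05 for unrelated normal values. This was the within-array ratio of Igf1 (probe 22H) to Ghr, where the gap on replicate 5 was 0.663 of the range. The log2 ratio reached 2.06 there, while the other 5 arrays lay from 0.60 to 1.09. The SD of this log2 ratio was 0.54 over 6 arrays and 0.19 without replicate 5.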

How the results depend on the processing

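Of the 15 gene pairs, 5 were called on the median-centred scale. The count was 0 in deposited units, 3 after quantile normalization, 1 relative to 28S, 3 of 6 pairs with only probes above the noise bound on every array, and 2 by Spearman's rho. Leaving out 1 array gave 0 (without replicate 1) to 4 (without replicate 3), against 8.75% and 11.4% of all pairs. The exact test over 5 arrays cannot go below 0.0167. The count was within 1.5 times of 5 when centred on the brighter 50% of probes, with values under the bound set to it and with the other Igf1 probe. The correlation of the 2 Igf1 probes was 0.72 in deposited units (exact permutation p = 0.136) and 0.69 relative to 28S (exact permutation p = 0.142), and 0.83 to 0.91 without 1 array. All 5 called pairs kept r above 0 under every alternative run. Of the other 10 pairs, 6 changed sign in deposited units, 5 relative to 28S, 4 with values under the bound set to it, 4 without replicate 1 and 0 after quantile normalization. The median SD of the 6 genes, 0.95, was 0.54 with only probes above the bound and 0.50 with values under the bound set to it, and 0.69 to 1.06 without 1 array. Of the alternative values of the within-array ratio SDs, 11 moved by over 1.5 times and 115 by less. No paired analysis was possible because there is 1 group.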
